A study of Mus musculus with 12 samples.

Results

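The clustered protocadherins are cell-surface proteins of the cadherin superfamily whose genes lie side by side in 3 clusters, alpha, beta and gamma, on mouse chromosome 18. All genes whose symbol placed them in a cluster were taken, whatever their counts, which gave 58 of the 50600 gene identifiers measured: 14 alpha, 22 beta and 22 gamma members. Their RNA was followed through development of the mouse cerebral cortex (strain C57BL/6), at 3 prenatal ages, E11, E13 and E17, and 1 day after birth (P1). There were 3 poly(A) RNA libraries per age, named A, B and C. An individual animal gave each library, and littermates were not used at the same age. The animals carried no stated mutation and received no stated treatment, so age is the only factor that the labels give. The title of the series concerns zinc in the developing cortex, and the protocadherins are described here as a gene family within it.

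In the alpha and gamma clusters, each isoform begins with its own large variable exon, which encodes the extracellular cadherin repeats, the membrane span and part of the tail, and has its own promoter. That exon is spliced to a set of constant exons that every isoform of the cluster shares. Beta members are separate genes with no constant exons. In a single neuron, promoters are chosen largely at random from the alternate isoforms, with CTCF and cohesin bringing a chosen promoter to distant enhancers, whereas the C-type isoforms Pcdhac1, Pcdhac2, Pcdhgc3, Pcdhgc4 and Pcdhgc5, at the end of the alpha and gamma clusters, are expressed more broadly. The proteins pair in cis and bind the same set of isoforms on an opposing membrane, which in mouse neurons serves recognition of a neuron's own branches, dendrite growth, axon tiling and the survival of interneurons.

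Total counts per library were 28173745 to 45858712. The mix of cells shifted with age in the same libraries. Every level here is in CPM, which are counts scaled to library size and to a TMM scaling factor of each library. The 10 pan-neuronal markers, all detected, summed to 1354 to 1570 CPM at E11, 2615 to 3134 at E13, 10920 to 11040 at E17 and 11730 to 12300 at P1. The 10 markers of dividing cells and radial glia summed to 406.9 to 471.4 CPM at P1, against 4430 to 4710 CPM at E11. Libraries of an age also differed: markers of interneurons and the ventral telencephalon summed to 44.9 CPM in E11 C against 6.74 and 3.98 CPM in E11 A and E11 B, and choroid plexus markers to 38.6 CPM in E13 C against 377 and 332 CPM in E13 A and E13 B. Meningeal markers summed to 14.1 to 52.9 CPM over the E17 and P1 libraries, against 793 to 1434 CPM over the E11 and E13 libraries. Erythroid markers summed to 45.6 to 83.9 CPM at P1, against 4938 to 13720 CPM at E11, and oligodendrocyte lineage markers to 300.3 to 323 CPM at P1, against 100.9 to 165.7 CPM at E17. In bulk tissue a change in the number of cells that express a gene and a change in RNA per cell cannot be told apart, and the part of these shifts in the protocadherin results was not tested.

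The deposited counts of alpha and gamma members were nearly the same number repeated. In P1 C the 14 alpha members had 11912 to 14178 counts, with a median of 12405, and in E11 A they had 342 to 542 counts, with a median of 352. The lowest alpha member stood at 95.6% (E17 C) to 98.0% (E11 B) of the cluster's median, and the lowest gamma member at 96.6% (E17 A) to 97.6% (E13 C). In the GENCODE M21 gene models all alpha members have 2860 exon bases in common and all gamma members 2116, so reads on the constant exons had been counted for every member of the cluster and were not dropped as ambiguous. The lowest member was Pcdha1 or Pcdha8 in the alpha cluster, and Pcdhgb8 in the gamma cluster in 11 of the 12 libraries, with Pcdhga1 lowest in E11 C.

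A pair of quantities was therefore kept apart for these clusters, a division chosen after the counts had been seen. The lowest count of a cluster in a library measured its constant exons and is called the shared part. What a member held above that lowest count, here called isoform-specific reads, came from outside the constant exons. Any reads of the lowest member itself were subtracted, which makes this quantity a lower bound unless gene models overlap at length. Beyond the constant exons, the models of Pcdhgb1 and Pcdhga4 share 1038 bases, and those of Pcdhgb4 and Pcdhga8 share 108. Reads there may be in both members of a pair, so for these members it is not a bound. Other alpha and gamma pairs share at most 4 bases. Pcdha1, Pcdha8 and Pcdhgb8 had too few reads left to be tested in this way. The read-through models Gm42416 and Gm37013, whose GENCODE exons overlap exons of both clusters, had 1118 to 6709 and 359 to 2001 counts per library and were dropped from that fit. Beta members share no base common to all of them, and their counts were used as deposited.

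The alpha and gamma clusters were higher at each later age, and the beta cluster at each up to E17. The shared part of the alpha cluster averaged 8.69 ± 1.47 CPM at E11, 20.8 ± 1.91 at E13, 169.9 ± 12.6 at E17 and 261 ± 20.6 at P1 (SD, n = 3 libraries each). For the gamma cluster it averaged 146.8 ± 5.23, 204.9 ± 11.8, 558.9 ± 14.2 and 621.6 ± 11.1 CPM at the same ages. The summed beta members averaged 17.5 ± 1.48, 44.9 ± 4.53, 212.5 ± 18.4 and 227 ± 11.1 CPM. No library of E17 overlapped one of E13 in any cluster, and of the P1 and E17 levels only the beta sums overlapped, at 222.4, 239.7 and 219 CPM at P1 and 219.9, 226 and 191.6 CPM at E17.

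The clusters differed in the size of the change. The P1 mean was 30.1 times the E11 mean for the alpha shared part, 13 times for the beta sum and 4.23 times for the gamma shared part. The gamma cluster started highest, and at P1 its shared part was still above that of the alpha cluster, although its constant exons are shorter. In the fit across all genes, the alpha shared part was higher by 4.91 ± 0.12 on the log2 scale at P1 than at E11 (SE, adjusted p = 6.9e-13) and the gamma shared part by 2.08 ± 0.06 (adjusted p = 7.14e-13), by edgeR's quasi-likelihood test. These differences between clusters are given as values and were not tested against each other. Adding up members as deposited would count a constant-exon read once per member, giving 3821 CPM for the alpha cluster at P1, against 428.9 CPM with the shared part counted once.

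**Figure D1:**
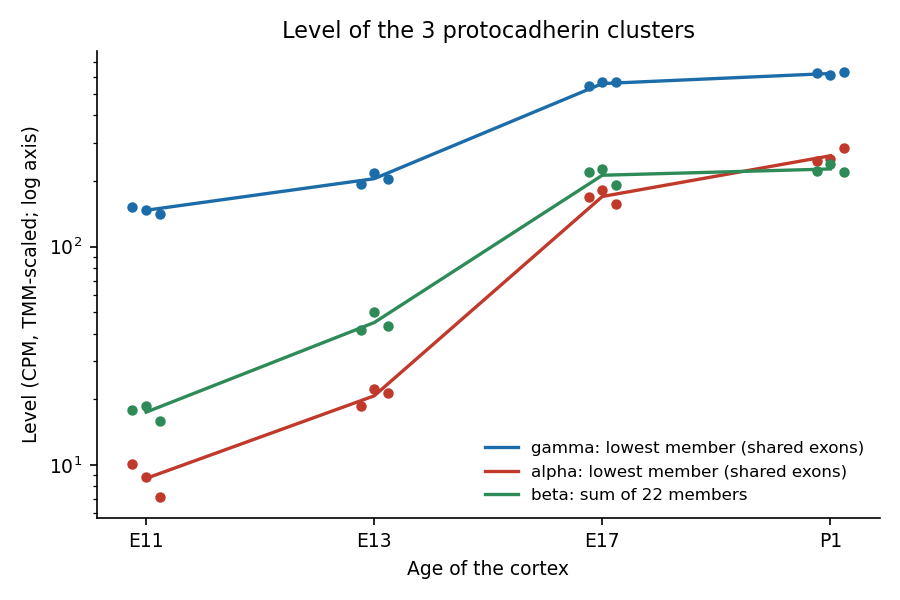
Level of each cluster in CPM (TMM-scaled, log axis) against age, with 1 point per library and lines through the means of 3 libraries. The gamma and alpha curves are the lowest member's count, a measure of the constant exons, and the beta curve is the sum of 22 members. The alpha curve climbed most, 30.1-fold between E11 and P1, and the gamma curve least, 4.23-fold.

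In the counts as deposited, 57 of the 58 members could be tested, and all 57 were higher at E13 than at E11 at an adjusted p under 0.05, where 22.6% of all tested genes were higher and 40.1% differed in either direction. Pcdhb13, with 11, 4 and 1 counts at E11, lost that call in 3 of the 12 fits that left out 1 library (adjusted p up to 0.0741). Pcdhb12 lost it without E13 B. All 57 were also higher at E17 than at E13 (36.8% of all genes higher, 73.8% in either direction) and at P1 than at E11 (40.5% and 82.3%), and across the 4 ages in one test all 57 differed, beside 90.2% of all genes. Neighbouring comparisons share libraries, and because members of the alpha and gamma clusters share reads, these counts are not 57 separate measurements. The median log2 change from the earlier to the later age was 1.26, 3.03 and 0.62 for alpha members over the steps E11 to E13, E13 to E17 and E17 to P1. It was 1.42, 2.29 and 0.07 for beta members and 0.48, 1.45 and 0.15 for gamma members. Over all tested genes the corresponding medians were 0.00, -0.04 and 0.00. At P1 against E17, 37 members were higher, none was lower and 20 did not pass the threshold, with 24.0% of all genes higher and 49.9% different in either direction.

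The beta cluster is the part of the family in which each deposited count belongs to its own gene, apart from 455 bases that the models of Pcdhb21 and Pcdhb22 share. Pcdhb1 was nearly silent, with counts of 0, 1 and 0 at E11, 1, 0 and 0 at E13, 0 in all 3 libraries at E17 and 3, 2 and 4 at P1, and was not tested. Of the other 21 beta members, all were higher at P1 than at E11, by 2.05 to 5.43 on the log2 scale. Per kilobase of exon, Pcdhb20 led at P1 with 5.81 CPM per kb, followed by Pcdhb17 with 5.39 and Pcdhb9 with 4.75. At E11 Pcdhb7 led with 0.442 CPM per kb, followed by Pcdhb17 with 0.407, and Pcdhb9 stood in place 15 with 0.108.

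Pcdhb17, the member with the highest mean CPM of the cluster, had 1.71, 2.12 and 1.85 CPM at E11, 5, 5.17 and 5.06 at E13, 26.6, 26 and 22.4 at E17 and 25.8, 26.2 and 23.4 at P1. Its ages lay apart up to E17, and its P1 and E17 libraries overlapped. The change was 1.42 ± 0.11 at E13 over E11, 2.30 ± 0.10 at E17 over E13 and 0.01 ± 0.09 at P1 over E17 on the log2 scale (SE; adjusted p = 9.03e-07, 1.21e-10 and 0.935). Pcdhb19 and Pcdhb22, the next by mean level, followed the same course, with changes at P1 over E17 of 0.08 ± 0.13 and -0.04 ± 0.13 (adjusted p = 0.629 and 0.826).

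With every library in the fit, Pcdhb9 and Pcdhb12 were the beta members past the threshold between P1 and E17, and both were higher at P1. Fits that left out 1 library also called Pcdhb20 (without E17 B or P1 C, lowest adjusted p = 0.0305), Pcdhb11 (without E17 B or P1 A, 0.0356) and Pcdhb5 (without E13 B, E17 A or P1 A, 0.0294) higher. Pcdhb9 had 13.9, 15.7 and 13.9 CPM at P1, against 11, 11.7 and 10 CPM at E17, with no overlap (0.42 ± 0.13, adjusted p = 0.0192). That call was lost without E17 C (adjusted p = 0.0829) or without P1 B (0.0641). Pcdhb12 had 5.73, 6.57 and 7 CPM at P1 and 4.36, 4.05 and 3.64 CPM at E17 (0.69 ± 0.17, adjusted p = 0.00453), a call kept in all 12 fits that left out 1 library. Over the whole span Pcdhb9 was 43.2-fold and Pcdhb12 34.8-fold higher at P1 than at E11, starting from 0.332 and 0.183 CPM. Those E11 levels rest on 8, 16 and 9 counts for Pcdhb9 and 5, 6 and 7 for Pcdhb12. With single libraries left out, the log2 change was 5.23 to 5.78 for Pcdhb9 and 4.99 to 5.27 for Pcdhb12. For Pcdhb12 the E13 over E11 step of 1.24 ± 0.33 (adjusted p = 0.00875) was lost without E13 B (0.9, adjusted p = 0.104).

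Pcdhb10 had one of the 2 largest steps of the cluster between E11 and E13, with Pcdhb9. It had 0.476, 1.15 and 1.05 CPM at E13 and 0.236, 0.177 and 0.287 CPM at E11, a difference of 1.92 ± 0.36 on the log2 scale (adjusted p = 0.00098). After E17 it stayed level, at 3.52, 3.74 and 2.87 CPM at P1 against 3.11, 3.87 and 3 CPM at E17 (0.02 ± 0.23, adjusted p = 0.945). Pcdhb6, named after its values were seen, had the smallest rise of the tested beta members between E11 and P1, 2.05 ± 0.22, and its mean was 2.94 CPM at P1 and 3.7 CPM at E17 (-0.33 ± 0.19, adjusted p = 0.155). Across the 21 tested members the P1 over E17 change ran from this value to that of Pcdhb12.

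**Figure D2:**
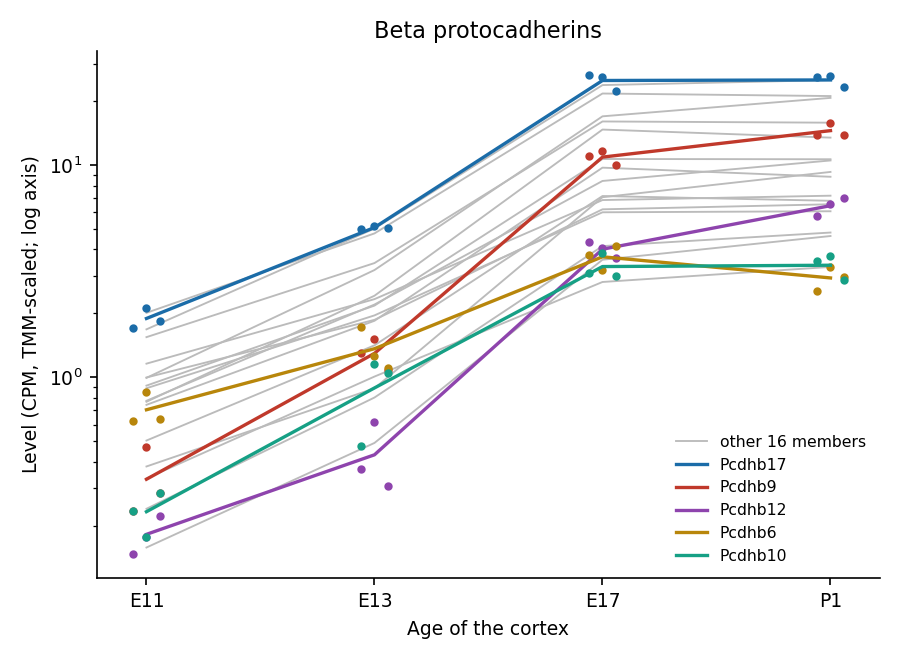
Level of 21 beta members (Pcdhb1 left out) in CPM (TMM-scaled, log axis) against age; coloured lines have 1 point per library and pass through the mean of 3 libraries, grey lines are means only. Pcdhb9 and Pcdhb12 started low and continued upward between E17 and P1, where Pcdhb17 and Pcdhb10 stayed level.

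Isoform-specific reads were then tested for 33 of the 36 alpha and gamma members, with the whole gene table refitted. At E13 against E11, 22 of the 33 were higher, none was lower and 11 did not pass the threshold, where 22.5% of all genes were higher and 40.0% differed in either direction. At E17 against E13 all 33 were higher (36.8% of all genes), and these calls held in every fit that left out 1 library. At P1 against E17, 7 were higher, 3 were lower and 23 did not pass, beside 23.9% of all genes higher and 25.9% lower. At P1 against E11, 32 were higher (40.5% of all genes) and 1, Pcdhgb5, did not pass. Across the 4 ages in one test all 33 differed, beside 90.2% of all genes.

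**Figure D3:**
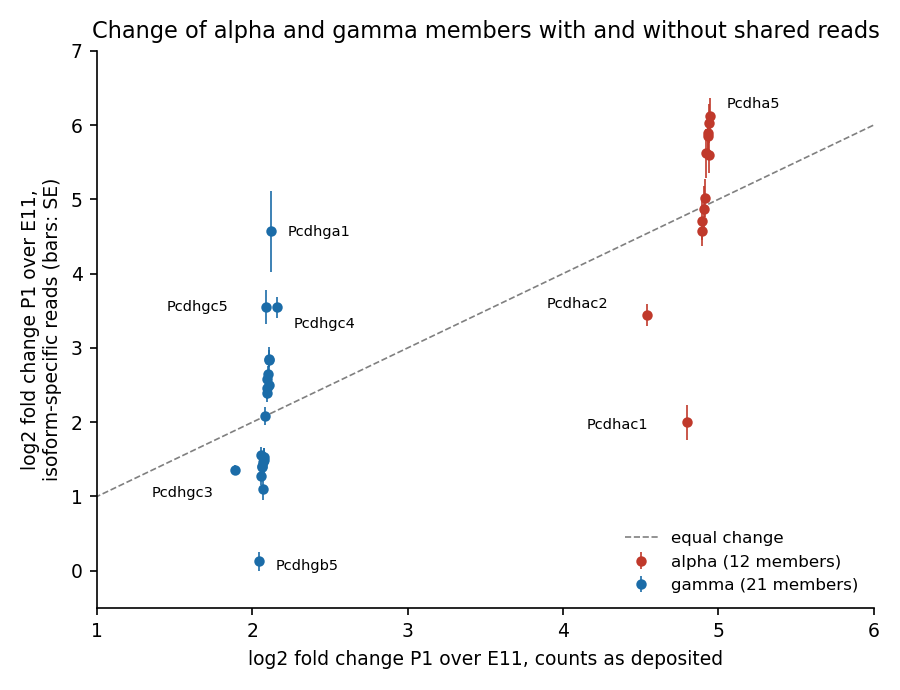
Log2 fold change of P1 over E11 for 12 alpha and 21 gamma members, from the counts as deposited (horizontal axis) and from isoform-specific reads (vertical axis, bars are standard errors). The deposited values collapse to near 4.9 for alpha and near 2.1 for gamma members, whereas isoform-specific values run from 1.998 to 6.12 in the alpha cluster and from 0.13 to 4.57 in the gamma cluster.

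Among the alpha isoforms, those of the alternate kind rose most and the C-type isoforms least. Pcdha5 had 0.295, 0.177 and 0.0956 CPM of isoform-specific reads at E11, 0.556, 0.674 and 0.679 at E13, 7.08, 9.45 and 8.44 at E17 and 11.4, 14.2 and 14.9 at P1. Each age lay above the one before without overlap, and the change at P1 over E11 was 6.12 ± 0.25 on the log2 scale (adjusted p = 2.4e-11). Pcdha4 had 10.8, 12.2 and 13 CPM at P1, against 0.295, 0.0884 and 0.159 CPM at E11 (6.02 ± 0.26, adjusted p = 5.55e-11). Pcdha2 had the second largest step of the cluster between E13 and E17, with 7.05, 8.24 and 7.36 CPM at E17 and 0.476, 0.562 and 0.586 CPM at E13 (3.80 ± 0.20, adjusted p = 9.14e-10), after that of Pcdha4 at 3.90 ± 0.22. The E11 values of these isoforms rest on a few counts per library, such as 10, 6 and 3 for Pcdha5, against 200, 167 and 105 for Pcdhac2. Any reads subtracted with the lowest member weigh more on such small counts. The fold changes of the alternate isoforms, and their distance from that of Pcdhac2, are therefore less certain than the standard errors show.

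Pcdha12 and Pcdha9 held the next places after Pcdhac2 from E13 onward when compared per kilobase outside the constant exons. Pcdha12 had 0.266, 0.796 and 0.765 CPM at E11, 2.22, 3.29 and 1.85 at E13, 16.4, 15.5 and 15.5 at E17 and 15.9, 15.9 and 16.3 at P1. It climbed in the first 2 steps, by 2.01 ± 0.29 and 2.68 ± 0.22, and stood level in the last, at 0.02 ± 0.19 (adjusted p = 0.94). Pcdha9 went on, with 16.6, 14.2 and 18.2 CPM at P1 against 8.07, 13.2 and 12.4 CPM at E17 (0.53 ± 0.17, adjusted p = 0.0182), and E17 A was its lowest library; without E17 A the adjusted p was 0.0597, and without P1 C it was 0.0702. The 2 identifiers that carry the symbol Pcdha11 were also level in the last step, at 0.06 ± 0.20 for ENSMUSG00000007440 and 0.14 ± 0.18 for ENSMUSG00000102206 (adjusted p = 0.827 and 0.534).

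Pcdhac2, a C-type isoform needed in mice for the tiling of serotonergic axons, had the most isoform-specific reads of the alpha cluster in all 12 libraries. Its level was 5.91, 4.92 and 3.35 CPM at E11, 6.53, 6.35 and 7.25 at E13, 28.4, 30.2 and 31.9 at E17 and 52.3, 48.8 and 54.1 at P1. At E13 over E11 the step was small, 0.50 ± 0.15 (adjusted p = 0.0183, and 0.0597 without E13 C), and the later ones were 2.17 ± 0.14 and 0.78 ± 0.13 (adjusted p = 9.68e-09 and 2.89e-04). Over the whole span it was 10.9-fold higher at P1 than at E11, while its deposited counts, which include the shared reads, gave 23.3-fold.

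Pcdhac1, the other C-type isoform of the cluster, had 1.09, 0.59 and 0.701 CPM at E11, 1.09, 1.04 and 1.39 at E13, 2.39, 2.184 and 2.49 at E17 and 2.82, 2.84 and 3.89 at P1. It was 3.99-fold higher at P1 than at E11 (1.998 ± 0.23, adjusted p = 2.13e-06), the smallest rise of the 12 tested alpha isoforms. At E13 against E11 the ages overlapped and it did not pass (0.55 ± 0.25, adjusted p = 0.0982), although it did without E11 A (0.0214). Per kilobase it stood in place 12 of 14 at P1 and at E17, and in place 2 at E11, after Pcdhac2.

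In the gamma cluster the isoform with the most reads rose less than the median of its cluster, and Pcdhgc4, Pcdhgc5 and Pcdhga1 rose most. Pcdhgc3, a C-type isoform that promotes dendrite branching in mouse cortical neurons, had 71.2, 64.4 and 70.3 CPM at E11, 87.8, 87 and 80.1 at E13, 178.1, 179.5 and 205.3 at E17 and 184.9, 178.7 and 163.2 at P1. It led its cluster per kilobase at every age, with 51.9 CPM per kb at P1 and 20.3 at E11. It was 2.56-fold higher at P1 than at E11 (1.36 ± 0.07, adjusted p = 3.49e-10), most of it between E13 and E17 (1.14 ± 0.07), and P1 and E17 overlapped (-0.10 ± 0.07, adjusted p = 0.27).

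Pcdhgc4, the C-type isoform required for survival of cortical interneurons in mice, stayed low through E13 and then rose steeply. It had 4.82, 4.33 and 4.59 CPM at E11, 3.28, 5.59 and 3.92 at E13, 41.8, 43.5 and 42.1 at E17 and 55.6, 54.2 and 50.9 at P1. At E13 against E11 the ages overlapped (-0.11 ± 0.15, adjusted p = 0.606), a difference that passed as lower only without E13 B (-0.35, adjusted p = 0.0154). At E17 it was 9.97-fold higher than at E13 (3.32 ± 0.14, adjusted p = 1.28e-10). The step to P1 was 0.33 ± 0.12 (adjusted p = 0.0308); it was lost in 5 of the 12 fits that left out 1 library, with adjusted p of 0.069, 0.05, 0.0662, 0.0753 and 0.0581 without E17 A, E17 B, E17 C, P1 A and P1 B. In the same libraries the 8 markers of interneurons and the ventral telencephalon summed to 3.98 to 44.9 CPM at E11, 21.4 to 63.4 at E13, 369.4 to 441 at E17 and 408.4 to 435.1 at P1. Their part in the Pcdhgc4 result was not tested.

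Pcdhgc5, the third C-type isoform of the cluster and known from rodent brain as a partner of GABA-A receptors, was the rarest tested gamma isoform per kilobase at all 4 ages. It had 0.295, 0.56 and 0.542 CPM at E11, 0.212, 0.393 and 0.401 at E13, 4.39, 4.44 and 4.39 at E17 and 5.11, 4.97 and 6.33 at P1. Like Pcdhgc4 it did not rise before E13 (-0.48 ± 0.31, adjusted p = 0.24), and at E17 it was 13.2-fold higher than at E13 (3.72 ± 0.25, adjusted p = 8.88e-09). Its values rest on 10, 19 and 17 counts at E11 and 8, 14 and 13 at E13. Any reads subtracted with the lowest member weigh more on such small counts. The changes of Pcdhgc5 from these ages are therefore less certain than the standard errors show. The P1 libraries all lay above those of E17, but the difference did not pass (0.31 ± 0.18, adjusted p = 0.173).

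The alternate gamma isoforms spread over a wide range. Pcdhga11, second in the cluster per kilobase at E13, E17 and P1, had 49.8, 57.5 and 46.4 CPM at P1 and 10.2, 8.2 and 8.82 CPM at E11 (2.495 ± 0.10, adjusted p = 1.54e-11). Pcdhga1 had 19.5, 19.5 and 22.4 CPM at P1 and 1.45, 1.09 and 0 CPM at E11, where it was itself the lowest member in E11 C, so that its change of 4.57 ± 0.54 has the widest error among the gamma isoforms (adjusted p = 1.43e-05). Pcdhgb1 had 26, 25.9 and 22.2 CPM at P1 and 4.08, 3.51 and 2.74 CPM at E11 (2.84 ± 0.17, adjusted p = 3e-09), but 1038 bases of its model also belong to Pcdhga4 and reads there may be in both.

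Pcdhgb5, named after its values were seen, stood apart at the low end. Its isoform-specific level was 5.53, 6.34 and 5 CPM at E11, 4.66, 4.94 and 5.99 at E13, 6.44, 7.73 and 7.29 at E17 and 5.89, 6.34 and 6.21 at P1. P1 and E11 overlapped, with a difference of 0.13 ± 0.13 and an interval of -0.13 to 0.39 (2 SE each way; adjusted p = 0.367). Its deposited counts, carried by the constant exons, were called higher in all 4 comparisons. Only E17 against E13 passed on isoform-specific reads (0.47 ± 0.13, adjusted p = 0.00528), the smallest of the 33 changes in that step.

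**Figure D4:**
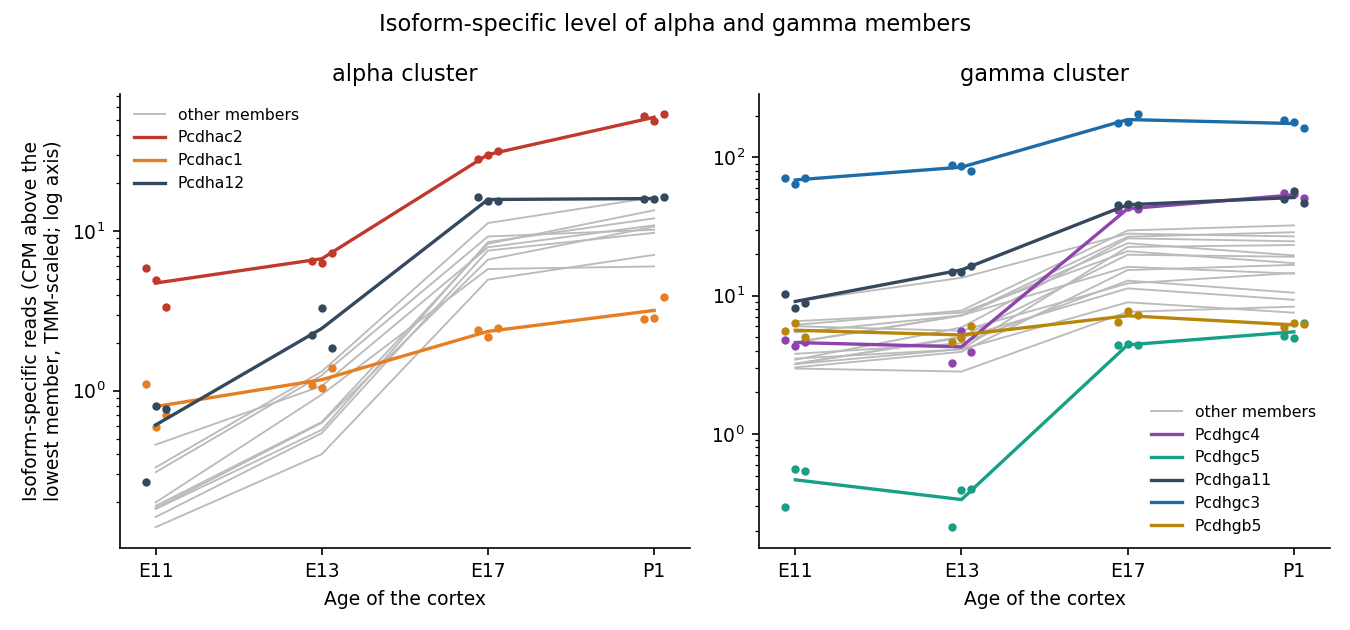
Isoform-specific reads in CPM above the lowest member (TMM-scaled, log axis) against age, alpha on the left and gamma on the right; coloured lines have 1 point per library and grey lines are means. Members with a library at 0 (Pcdha1, Pcdha8, Pcdhgb8 and Pcdhga1) are left out. Pcdhgc4 and Pcdhgc5 did not rise between E11 and E13 and rose steeply between E13 and E17. Pcdhgb5 stayed between 4.66 and 7.73 CPM in all 12 libraries.

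Between E17 and P1, where 23.9% of all genes were higher and 25.9% lower, the 2 clusters are given side by side and were not tested against each other. In the alpha cluster 6 of 12 isoforms were higher at P1 (Pcdhac2, Pcdha3, Pcdha4, Pcdha5, Pcdha7 and Pcdha9), with a median change of 0.48 over the 12. Pcdhac2, Pcdha3 and Pcdha5 kept the call in all 12 fits that left out 1 library; Pcdha4 lost it without E17 A, E17 C, P1 B or P1 C (adjusted p up to 0.0951), and Pcdha7 without E17 B or P1 C (up to 0.0594). Pcdha2, at 0.37 ± 0.15 (adjusted p = 0.0565), passed without P1 A (0.0146) and with RLE (0.047) or upper-quartile factors (0.0416), and Pcdha6 passed in 5 of the 12 fits that left out 1 library (lowest 0.0383). In the gamma cluster 1 of 21 was higher, Pcdhgc4, and 3 were lower, with a median of -0.05. Pcdhga11 passed as higher without P1 C (adjusted p = 0.0367) and Pcdhga10 without E17 A (0.0411).

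The 3 lower ones were Pcdhga4, with means of 19.6 CPM at P1 and 23.9 CPM at E17, Pcdhga7 with 17.2 and 21 CPM, and Pcdhgb2 with 9.34 and 11.3 CPM at those ages. The changes were -0.29 ± 0.11, -0.29 ± 0.10 and -0.27 ± 0.11 (adjusted p = 0.0403, 0.025 and 0.0475). None of the 3 was stable: Pcdhga4 lost the call without any 1 of the 3 E17 or 3 P1 libraries (adjusted p up to 0.168), Pcdhga7 without E17 A, E17 C, P1 B or P1 C (up to 0.136), and Pcdhgb2 in 10 of 12 fits (up to 0.193), all but those without E13 A or E13 B. They were named after their values were seen. Outside the constant exons, 1038 bases of the Pcdhga4 model also belong to Pcdhgb1, so its value may include reads of that isoform.

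The alpha shared part was 1.54-fold higher at P1 than at E17 (0.62 ± 0.10, adjusted p = 2.14e-04), and it passed under each alternative tried. The gamma shared part was 1.11-fold higher (0.15 ± 0.05, adjusted p = 0.0307), with no overlap between P1 (623.7, 609.5 and 631.5 CPM) and E17 (542.4, 567.7 and 566.5 CPM), but it did not pass without E17 A (adjusted p = 0.0764) or without P1 C (0.056). The 21 gamma members called higher at P1 in the deposited counts rest on this shared part, and the number of all members called fell to 17 without E17 A, 17 without E17 C and 20 without P1 C, against 37 with every library.

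The make-up of each cluster, taken as the share of its isoform-specific reads, moved away from the C-type isoforms up to E17. Any reads of the lowest member were subtracted from every member, and most members are not C-type. Adding them back would move every share toward an equal split, by an amount not known at any age. The summed C-type share of each cluster would be lower, and a small single share such as that of Pcdhgc5 higher. Summed isoform-specific reads of the alpha cluster were only 336, 283 and 210 counts in E11 A, E11 B and E11 C. The part of this in the trend was not tested. In the alpha cluster Pcdhac1 and Pcdhac2 together held 65.7 ± 5.04% at E11, 44.3 ± 4.70% at E13, 27.4 ± 1.28% at E17 and 32.7 ± 1.59% at P1 (SD, n = 3). The 3 libraries of each age lay apart from those of every other age: 70.5, 66.1 and 60.5% at E11, 47.2, 38.9 and 46.7% at E13, 27.6, 26.1 and 28.6% at E17 and 34.6, 31.9 and 31.7% at P1. Pcdhac2 alone fell to 25.4 ± 1.12% at E17, against 56.2 ± 5.36% at E11, and its mean was 30.9 ± 1.71% at P1. Pcdhac1 held 1.88 ± 0.21% at P1 and 9.52 ± 2.14% at E11, and Pcdha12 was at its highest share at E13 and E17, 13.7 ± 3.63% and 13.3 ± 1.16%.

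In the gamma cluster the 3 C-type isoforms held 46.6 ± 1.73% at E11, 44.1 ± 0.74% at E13, 40.0 ± 1.02% at E17 and 40.1 ± 0.97% at P1. This sum hid opposite movements. Pcdhgc3 held 30.0 ± 0.95% at P1, against 43.4 ± 1.67% at E11, while Pcdhgc4 held 9.15 ± 0.14% at P1, against 2.90 ± 0.07% at E11, and Pcdhgc5 0.94 ± 0.16% against 0.30 ± 0.10%. Pcdhgb5 held 1.05 ± 0.06% at P1 and 3.56 ± 0.49% at E11, and Pcdhga11 8.74 ± 0.75% at P1 and 5.74 ± 0.44% at E11. With 3 libraries against 3, an exact permutation test of a share cannot give a p below 0.1, so shares are given without one. As deposited, the C-type members held 15.1% of the alpha and 14.7% of the gamma counts at P1, where they make up 2 of 14 and 3 of 22 members.

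**Figure D5:**
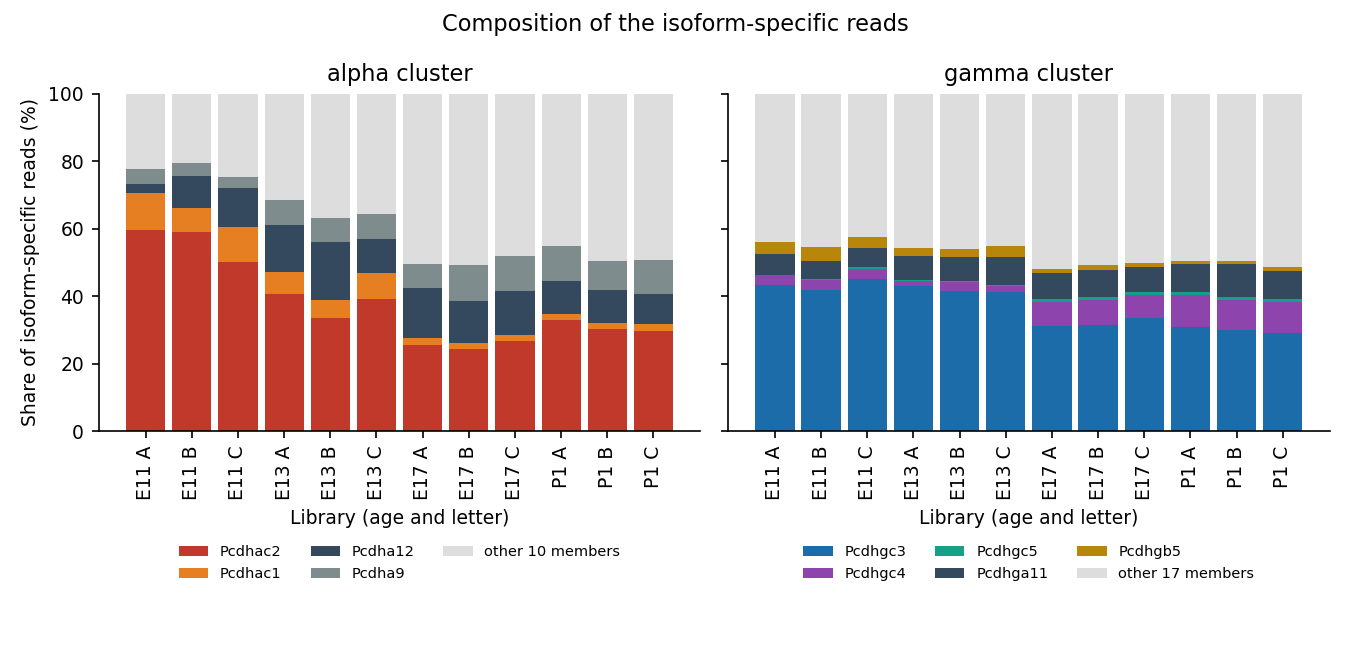
Share of isoform-specific reads (%) taken by named isoforms in each of the 12 libraries, alpha on the left and gamma on the right, with the other members in grey. In the alpha cluster Pcdhac2 and Pcdhac1 shrank up to E17, and in the gamma cluster Pcdhgc3 shrank while Pcdhgc4 grew.

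Most genes for factors that act on cluster promoters fell with age. Of 12 genes for cohesin, CTCF and other insulator proteins, 1 was higher and 4 were lower at E13 than at E11 (22.6% and 17.5% of all genes), and 1 and 10 at E17 than at E13 (36.8% and 37.0%). At P1 against E17, 0 and 11 were (24.0% and 25.9%), and at P1 against E11, 1 and 11 (40.5% and 41.8%). Stag2, a cohesin subunit, had 107.2 ± 6.31 CPM at P1, against 282.4 ± 16.4 CPM at E11 (-1.40 ± 0.07, adjusted p = 3.5e-10), and Wapl, which releases cohesin from DNA, had 65.2 ± 4.42 CPM at P1 and 174.2 ± 5.76 CPM at E11. Mau2, a subunit of the cohesin loader, was the 1 that rose, to 174.7 ± 10.5 CPM at P1, against 114.4 ± 3.31 CPM at E11 (0.61 ± 0.06). The median of the 12 was -0.99 at P1 over E11, where that of all tested genes was -0.04. Markers of dividing cells fell in the same libraries, and their part in these values was not tested.

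Of 15 DNA methylation and chromatin factors reported at the clusters, 2 were higher and 10 were lower at P1 than at E11, beside 40.5% and 41.8% of all genes, with a median of -0.64. Dnmt3b, a de novo DNA methyltransferase that in mice sets methylation at the promoters of alternate isoforms before neurons form, had 3.16 ± 0.50 CPM at P1 and 18.3 ± 1.43 CPM at E11 (-2.53 ± 0.12, adjusted p = 1.21e-10). Its level had already fallen at E13, to 10.5 ± 0.23 CPM (-0.80 ± 0.11, adjusted p = 8.25e-05). Uhrf1, a partner of the maintenance methyltransferase in dividing cells, had 15.1 ± 0.78 CPM at P1 and 382.3 ± 4.95 CPM at E11. Ehmt2, a histone methyltransferase, rose to 387 ± 6.23 CPM at P1, against 266.5 ± 5.01 CPM at E11 (0.54 ± 0.05).

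Genes for partners, processing enzymes and signalling of the proteins were mixed. Of 23, 15 were higher and 5 lower at P1 than at E11, beside 40.5% and 41.8% of all genes, with a median of 0.69. Ptk2b, a focal adhesion kinase family member whose activity the gamma proteins restrain, had 121.1 ± 15.2 CPM at P1 and 0.94 ± 0.21 CPM at E11 (7.01 ± 0.24, adjusted p = 3.59e-11), the largest rise of the list. Ret, a receptor tyrosine kinase that binds protocadherins, was at 5.28 ± 0.44 CPM at P1 and 0.17 ± 0.08 CPM at E11. Snx1, an endosomal sorting protein, and Cyfip1, a subunit of the WAVE complex that binds their tails, fell by 1.40 ± 0.06 and 0.62 ± 0.05 on the log2 scale between E11 and P1. The other WAVE complex genes of the list rose over that span. Their changes were 1.87 for Wasf1, 2.10 for Cyfip2, 0.69 for Nckap1, 0.65 for Abi1 and 1.70 for Abi2.

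The non-clustered protocadherins, relatives encoded singly outside the clusters, did not move as a block. Of 12, 9 were higher and 1 was lower at E13 than at E11 (22.6% and 17.5% of all genes), and 8 and 3 at E17 than at E13 (36.8% and 37.0%). At P1 against E17, 6 and 2 were (24.0% and 25.9%), and at P1 against E11, 9 and 3 (40.5% and 41.8%), with a median of 2.74. Pcdh8, which acts in dendritic spines, had 84.5 ± 9.47 CPM at P1 and 2.87 ± 1.14 CPM at E11 (4.87 ± 0.24), and Pcdh20 had 13.6 ± 2.42 and 0.68 ± 0.24 CPM at these ages. Pcdh18 fell to 22.5 ± 2.44 CPM at P1, against 92 ± 2.09 CPM at E11 (-2.04 ± 0.08), and Pcdh12, a protocadherin of blood vessel endothelium, to 6.53 ± 0.82 CPM at P1, against 13.7 ± 1.48 CPM at E11. The 5 endothelial markers summed to 125.5 to 153.3 CPM at P1 and 202.5 to 248.7 CPM at E11. Of these markers 3 were lower and 1 was higher at P1, and their part in the Pcdh12 value was not tested. In the same comparison no tested clustered member was lower, on deposited counts or on isoform-specific reads.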

How the data were processed

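Per the labels, RNA from the cortex of 12 C57BL/6 mice, 3 at each of 4 ages, was sequenced as 75 base single reads with a stranded poly(A) kit from 1 µg of total RNA per animal. The tools in the submitters' processing notes are HTSeq 0.5.3, STAR 2.5.2b, DESeq2 1.8.1, SAMtools and bcl2fastq 2.18. The sources used here give no build, annotation, strand setting or handling of overlapping genes, and no coordinates are printed. The deposited values are raw read counts per Ensembl identifier, 50600 of them, of which 224 had no symbol. Exon lengths and overlaps came from GENCODE M21, and 2 identifiers carry the symbol Pcdha11. Replicates of an age differed beyond sampling noise (10.2 to 29.8 chi-squared units per degree of freedom), and none was counted as a copy.

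The test was that of edgeR 4.0.16 in R 4.3.3 (filterByExpr, minimum count 10; 17847 genes kept; TMM; robust quasi-likelihood fit to all 12 libraries; Benjamini-Hochberg over all tested genes, two-sided, threshold 0.05). Fold changes are the later age over the earlier, with standard errors. Isoform-specific reads and the shared parts were tested by refitting the whole table with each cluster's lowest count per library split off. This alternative was added after seeing the data. The scripts were tested on simulated data in which the lowest members had few reads of their own. Such data cannot show what subtracting those reads does. Members, gene lists and tests were chosen with earlier results of these data known. The text names the C-type isoforms, the 3 members per cluster with the highest mean CPM, the 2 largest rises and falls past the threshold per comparison and cluster, and from each gene list the 2 largest rises and falls with a mean of at least 1 CPM (mainly those of P1 over E11); other names were chosen after values were seen. A gene that this rule names is not reported here. Where genes are ranked by level, the text says whether per kilobase or by CPM or reads, which also depend on gene length. Alternatives were RLE, upper-quartile and no scaling factors, no filter, 1 CPM in 3 libraries, only the ages compared, a replicate block, DESeq2 1.42.0, limma-voom (limma 3.58.1), each library left out, and E11 C, E13 C and E17 A left out together.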

Additional observations from a re-analysis of the deposited data

How the results depend on the processing

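The number of members called stayed within 1.5 times its value under every alternative for E13 over E11, E17 over E13 and P1 over E11. For P1 over E17 it was 37 as reported, 18 with no low-count filter, 20 with the replicate block, 16 with E17 A, E13 C and E11 C removed together, 12 with shared reads split off, and 17 to 38 with single libraries left out. The letters of libraries did not pair the ages (same-letter correlations -0.34 to 0.33, of both signs), so the block is reported here only. The isoforms called on isoform-specific reads at P1 over E17 were 10, 5 without those 3 libraries together, and 5 to 11 with single libraries left out. Scaling by library size alone shifted the members' E17 over E13 and P1 over E11 changes by -0.18 and -0.23 on the log2 scale. The median E17 over E13 change of the tested members, 1.93, was 1.74 with library size alone, 2.14 without E13 B, 2.07 with the 3 libraries removed together and 2.20 with shared reads split off, and that of P1 over E11, 3.38, was 3.15 with library size alone. Of all genes called at E17 over E13, 39.8% were higher with library size alone, against 49.8%. That scaling moved the mean alpha level with shared reads counted once at E17 to 269.7 CPM, the beta sum to 18.96 at E11 and 210.4 at P1, the gamma sum as deposited to 3679, 5002, 12030 and 13210 at the 4 ages, and the gamma level with shared reads counted once to 330.9, 433, 1070 and 1118.

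Changes that turned sign were near 0 and not called. With single libraries left out, the P1 over E17 change was -0.0658 (without E17 C) to 0.079 for Pcdhb17, -0.0103 (E17 C) to 0.1625 for Pcdhb19, -0.0885 to 0.0127 (E17 B) for Pcdhb22 and -0.0509 (E17 C) to 0.1485 for Pcdhb10, which was also negative without E17 A (-0.0001) and P1 B (-0.0323). On isoform-specific reads it was -0.1137 to 0.0015 (E17 C) for Pcdhgc3 and -0.0849 to 0.0203 (P1 C) for Pcdhgb1. The E13 over E11 change of isoform-specific Pcdhgc4 was -0.349 (E13 B, past the threshold) to 0.06 (E13 A). Library size alone gave -0.0016 for Pcdhb17, and the 3 libraries removed together -0.0195 for Pcdhb10, at P1 over E17. The causes were not tested. The gamma shared part at P1 over E17 also missed the threshold with the block (0.15, adjusted p = 0.0547), and isoform-specific Pcdha2 passed it with the block (0.36, adjusted p = 0.0497). Depth limits the alpha isoforms at E11, and Pcdhgc5 at E11 and E13, whose reads above the lowest member were few.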
